A study of Mus musculus with 38 samples.

Results

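Polysome-bound RNA was compared between 3 libraries of germinal vesicle (GV) oocytes and 3 libraries of two-cell embryos in interphase, chosen by their stage and fraction labels out of 36 libraries with values in the series. Oocyte donors were ICR females of at least 6 weeks of age primed with PMSG, and both groups carry the treatment label WT. GV oocytes were fully grown, were isolated with IBMX, which holds them in meiotic prophase, and were denuded of their follicle cells. Two-cell embryos came from PMSG- and hCG-treated females mated with ICR males: zygotes were recovered from the oviducts and cultured in KSOM to the two-cell stage. The methods name nocodazole for metaphase zygotes and two-cell embryos, without a statement on interphase two-cell embryos. Cells were treated with cycloheximide and lysed, the lysate was run on a sucrose gradient, and of 10 fractions the heaviest 5 were pooled as polysomes. Each library is a pool of oocytes or embryos, so fewer cells with a transcript and less of it per cell cannot be told apart.

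A GV oocyte makes almost no new RNA and lives on mRNA stored during its growth, part of which is loaded onto ribosomes and part of which is masked. After maturation and fertilization most of that store is degraded, and the embryonic genome is switched on, first weakly in the zygote and then strongly in the two-cell embryo. In the mouse the two-cell burst is marked by gene families with transient expression, such as Zscan4, a cluster of zinc-finger genes, and by transcripts of recently duplicated genes.

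The upstream sequences of 6 genes from the comparison are given first, to show what oocyte and two-cell genes carry next to their start sites. Each run holds the 150 bases before the RefSeq start (GRCm38.p6), read on the gene's own strand. GENCODE places some of these starts differently, so that the runs of Zar1 and Omt2a lie inside the GENCODE gene and those of Zp3, Tcl1b1 and Zscan4d reach into it. Capitals in the first 4 mark CACCTG on either strand, a form of the E-box that basic helix-loop-helix factors recognise. Zp3 (zona pellucida glycoprotein 3, chr5:135979955-135980104, plus strand) and Zar1 (zygote arrest 1, chr5:72581085-72581234, minus strand) were higher in GV polysomes. Omt2a (an oocyte maturation gene, chr9:78314049-78314198, minus strand) and Tcl1b1 (a Tcl1 family gene, chr12:105159554-105159703, plus strand) were higher in two-cell polysomes.
Zp3: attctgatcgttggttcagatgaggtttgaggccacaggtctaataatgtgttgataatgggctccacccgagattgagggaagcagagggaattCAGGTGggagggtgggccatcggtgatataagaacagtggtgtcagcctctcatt
Zar1: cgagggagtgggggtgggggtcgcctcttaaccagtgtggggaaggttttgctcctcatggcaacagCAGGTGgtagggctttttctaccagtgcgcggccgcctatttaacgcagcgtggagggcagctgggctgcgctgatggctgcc
Omt2a: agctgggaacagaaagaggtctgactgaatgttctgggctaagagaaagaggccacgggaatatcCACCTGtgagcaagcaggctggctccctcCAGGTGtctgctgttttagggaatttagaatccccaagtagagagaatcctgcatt
Tcl1b1: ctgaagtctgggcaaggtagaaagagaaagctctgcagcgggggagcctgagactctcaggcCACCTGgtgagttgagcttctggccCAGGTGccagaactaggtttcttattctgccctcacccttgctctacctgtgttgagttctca
The match began at -55 in Zp3, at -83 in Zar1, at -85 and -56 in Omt2a, and at -88 and -63 in Tcl1b1, counted from the start site. These 4 genes were chosen after their values were seen, and CACCTG was present in 20.03% of the 27025 promoters of 300 bases in the RefSeq table, each from 250 bases before to 50 after the start. It was found in 17.24% of the 667 promoters matched to genes called higher in GV and in 26.38% of the 163 matched to genes called higher in two-cell.

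In the 2 runs below, from neighbouring members of the Zscan4 cluster, capitals mark a DUX-like motif (TGATT, any 2 bases, then ATCA; here read on the other strand), the TATA box TATAAA and CCAAT. The first resembles the site that the two-cell factor DUX binds, and all motifs were searched on both strands. Zscan4c lies at chr7:11005595-11005744 on the plus strand and Zscan4d at chr7:11166149-11166298 on the minus strand.
Zscan4c: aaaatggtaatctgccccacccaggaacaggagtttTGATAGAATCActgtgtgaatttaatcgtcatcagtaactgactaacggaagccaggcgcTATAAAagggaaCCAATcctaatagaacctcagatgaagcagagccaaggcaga
Zscan4d: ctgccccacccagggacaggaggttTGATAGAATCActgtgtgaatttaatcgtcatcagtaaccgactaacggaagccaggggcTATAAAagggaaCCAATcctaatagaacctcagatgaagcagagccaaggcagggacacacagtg
The 3 motifs stood at -114, -54 and -42 in Zscan4c and at -125, -65 and -53 in Zscan4d, with the same spacing in both. The DUX-like motif was present in 63 of the 27025 promoters (0.2331%) and in 3 of the 163 promoters of genes called higher in two-cell (1.84%), which were those of Zscan4c, Zscan4d and Zscan4f, against 2 of 667 promoters of genes called higher in GV (0.2999%) and 7 of 5241 of genes tested (0.1336%). These genes are close copies of each other, so the 3 matches are not independent, and a match of letters is a description of the sequence only.

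Values are FPKM, fragment numbers scaled to exon length and library size, in which the authors' table lists every absent gene at 0.01, called the floor here. The smallest steps of the FPKM values imply 19100000 to 24800000 fragments in the 6 libraries, an estimate that rests on annotated exon lengths. Log2 values of replicates correlated at 0.769 to 0.889 across genes among GV and at 0.713 to 0.751 among two-cell, against 0.485 to 0.577 between the groups. GV library B stood apart with 10222 genes at the floor against 7990 and 7060 in GV libraries A and C. Genes above 1 FPKM numbered 4561 ± 132 in GV and 4199 ± 147 in two-cell (SD, n = 3 each), and the exact two-sided permutation test gave p = 0.1, the smallest value that 3 against 3 allows. The share of ribosomal RNA in the summed FPKM ranged from 0.303% to 1.75% in GV and from 2.62% to 4.12% in two-cell, and the part of this difference in the results was not tested.

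The labels were checked against marker genes. Among oocyte markers, the zona genes Zp1 and Zp3, the growth factors Gdf9 and Bmp15, the transcription factor Nobox and the kinase Mos were all at 62.6 FPKM or more in every GV library, while the transcription factor Figla was at 0.960, 1.32 and 0.378 FPKM. Zp2, the other oocyte marker of this check, lay between Figla and the rest in every GV library. Bmp15, Nobox and Zp2 were not called between the stages, as given below, so they do not tell the 2 labels apart. Among two-cell markers, Zscan4a, Zscan4c, Zscan4d, Zfp352 and Usp17la were at most 0.0845 FPKM in GV and at least 1.41 FPKM in two-cell. Tcstv1, Tcstv3 and Eif1ax were not called, and Tcstv1 read 190.4, 268 and 151 FPKM in GV and 85.4, 96.0 and 61.5 FPKM in two-cell. Of 18 cumulus and granulosa cell markers 7, including Amh, Foxl2 and Has2, were at the floor in all 6 libraries and their summed level was 4.09 to 11.9 FPKM in GV and 0.252 to 5.95 FPKM in two-cell, with Serpine2, a protease inhibitor, as the only tested member (5.06, 3.55 and 11.5 FPKM in GV and 0.0800, 0.514 and 0.0186 FPKM in two-cell). The 9 oviduct markers summed to 2.72 to 7.72 FPKM in GV and 0.232 to 10.8 FPKM in two-cell, with Ovgp1 and Krt19 at the floor throughout. The 7 sperm markers summed to 2.47 to 6.59 FPKM in GV and 9.86 to 13.3 FPKM in two-cell, and the 10 leukocyte markers to 1.29 to 2.49 FPKM and 2.74 to 5.18 FPKM.

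To ask which transcripts ribosomes carry before maturation and after the first cleavage, log2 FPKM was compared gene by gene. Of 7967 genes tested, 1331 (16.7%) were called, with 981 (12.3%) higher in GV and 350 (4.39%) higher in two-cell polysomes. Among the 6400 protein-coding genes tested, 838 (13.1%) were called higher in GV and 210 (3.28%) higher in two-cell. A call required a Benjamini-Hochberg adjusted p under 0.05 in limma and a change over 2-fold, and every log2 fold change below is GV over two-cell, so that positive values mean more in GV, with its standard error. The groups did not overlap for 1274 of the 1331 called genes, against 3552 of all genes tested (44.6%). Genes named below by list or by size of change were taken only from called genes without overlap. Their separation was therefore set by the choice. The median log2 fold change of called genes was 4.22 for those higher in GV and -4.18 for those higher in two-cell.

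The balance of the directions depends on scaling and on the minimum level. With no minimum level, 1361 of 23125 genes were called higher in GV and 706 higher in two-cell. A fit of the 6 libraries alone called 1173 genes higher in GV and 469 higher in two-cell. Over all tested genes the median log2 fold change was 0.85 in favour of GV, and quantile normalization brought it to 0.06, with 1033 genes (13.0%) then called higher in GV and 1023 (12.8%) higher in two-cell. No called gene changed its direction by quantile normalization, and 802 of the 981 and 349 of the 350 were called again in the same direction. Leaving out GV library A reduced the calls higher in GV to 625, and without GV library B, the GV library with most genes at the floor, 740 were higher in GV and 325 higher in two-cell. In all, 645 of the 1331 calls (450 higher in GV, 195 higher in two-cell) were made in all 6 fits that left out 1 library.

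**Figure D1:**
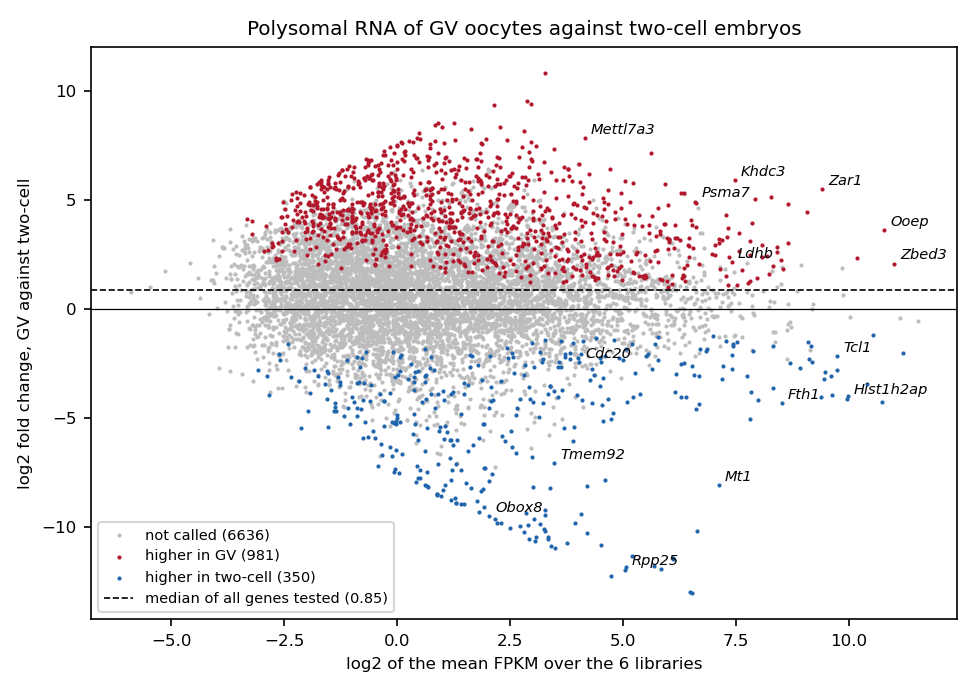
Log2 fold change of GV over two-cell polysomes (vertical) against the log2 mean FPKM of the 6 libraries (horizontal) for 7967 genes, with genes called higher in GV in red and genes called higher in two-cell in blue. The dashed line marks the median of all genes at 0.85, and Rpp25 and Mt1, among the genes called higher in two-cell, were at the floor or below 2 FPKM in every GV library.

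Among egg coat transcripts Zp1 and Zp3 were high in GV polysomes and fell by the two-cell stage, while Zp2 was low and not called. Of 10 tested zona and egg surface genes 4 were called higher in GV and 0 higher in two-cell, with 4 higher in GV and 2 higher in two-cell after quantile normalization. Their median log2 fold change was 2.42 against 0.85 over all genes, and 3 of the 4 were called in all 6 leave-one-out fits. Called genes made up 40% of those tested, against 16.7% of all genes. Zp3, a structural protein of the zona pellucida and the textbook sperm receptor, read 371, 423 and 251 FPKM in GV and 20.1, 54.5 and 25.9 FPKM in two-cell (log2 fold change 3.48 ± 0.88, adjusted p = 0.00658). Zp1, which links zona filaments, read 379.8, 315 and 160.5 FPKM in GV and 21.6, 38.7 and 24.4 FPKM in two-cell (3.29 ± 0.82, adjusted p = 0.00576). In both genes the lowest GV library, C in each case, was still several times above the highest two-cell library, B. Oosp2, an oocyte-secreted protein, went from 48.7, 70.7 and 27.6 FPKM in GV to 0.797, 2.59 and 1.96 FPKM in two-cell (4.84 ± 1.18, adjusted p = 0.00466). Astl, the protease ovastacin that cleaves ZP2 after fertilization, was also called (2.71 ± 0.91, adjusted p = 0.0393), but the call was lost without GV library A, GV library B, GV library C, two-cell library A, two-cell library B or two-cell library C, with an adjusted p of 0.0637 to 0.112. Zp2 itself was at 16.6, 5.94 and 21.6 FPKM in GV and 4.75, 1.47 and 2.11 FPKM in two-cell (adjusted p = 0.229).

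Of the 6 tested oocyte secreted factors only Gdf9 was called (16.7%, as over all genes). Gdf9, a TGF-beta family ligand by which the oocyte directs its granulosa cells, read 677, 704 and 751 FPKM in GV and 75.7, 107 and 80.1 FPKM in two-cell (3.04 ± 0.73, adjusted p = 0.00401), with the 3 GV libraries within a narrow range. Its partner Bmp15 read 171, 125 and 305 FPKM in GV and 125, 92.1 and 118 FPKM in two-cell, and since GV library B lay within the two-cell range the groups overlapped (adjusted p = 0.484). Of the 6 oocyte transcription factors tested limma called 0, with 2 at an unadjusted p under 0.05 and 1 called after quantile normalization (median log2 fold change 1.503). Nobox, which drives oocyte gene expression in the follicle, read 84.5, 62.6 and 75.5 FPKM in GV and 56.1, 48.3 and 51.4 FPKM in two-cell (adjusted p = 0.675).

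Maternal effect genes are transcribed in the oocyte and needed by the embryo, and several encode the subcortical maternal complex beneath the egg membrane. Of 31 tested, 12 were called higher in GV and 3 higher in two-cell (48.4%, against 16.7% of all genes). The median log2 fold change was 1.35, and 8 of the 12 and all 3 were called in each leave-one-out fit. The most abundant in GV polysomes were Zbed3 and Ooep, both members of the complex. Zbed3 fell from 3403, 2971 and 3528 FPKM to 779, 948 and 631 FPKM (2.09 ± 0.42, adjusted p = 8.66e-04), and Ooep from 3479, 3758 and 2497 FPKM to 236, 249.8 and 290.5 FPKM (3.63 ± 0.42, adjusted p = 3.80e-07). Khdc3, another member of the complex, dropped further, from 464, 328 and 256 FPKM to 9.47, 5.80 and 3.31 FPKM (5.90 ± 1.60, adjusted p = 0.0108). No two-cell library reached the lowest GV library in any of these 3 genes, and the two-cell level of Zbed3 stayed far above that of Khdc3.

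Other members of the same complex gave less clear test results. Tle6 read 234, 167 and 177 FPKM in GV and 25.6, 37.2 and 21.9 FPKM in two-cell, without overlap. With the spread taken over all 36 libraries it missed the threshold (adjusted p = 0.0539, and 0.0135 after quantile normalization). Padi6, an arginine deiminase family protein of the cytoplasmic lattices, read 167, 128 and 191 FPKM in GV and 32.4, 15.3 and 23.6 FPKM in two-cell (2.82 ± 0.85, adjusted p = 0.0217), and the call was lost without GV library A, GV library C, two-cell library B or two-cell library C, with an adjusted p of 0.0507 to 0.0821. Nlrp5 was low throughout, at 1.46, 0.461 and 1.58 FPKM in GV and 0.894, 0.396 and 0.809 FPKM in two-cell (adjusted p = 0.853).

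Zar1, an RNA-binding protein that protects and represses stored maternal mRNA (chr5:72576806-72581254, minus strand), gave one of the clearest differences. It read 1407, 1469.9 and 1087 FPKM in GV and 37.4, 33.5 and 18.4 FPKM in two-cell (5.53 ± 0.63, adjusted p = 3.68e-07), and its lowest GV library was far above its highest two-cell library. Zar1 was also the only call among 16 tested genes of mRNA storage and masking (6.25%, against 16.7% of all genes). The list gave 1 call higher in GV and 0 higher in two-cell (median 1.24), and 4 and 2 after quantile normalization. H1foo, the oocyte linker histone, read 632, 544 and 1143 FPKM in GV and 22.3, 26.9 and 30.1 FPKM in two-cell (4.80 ± 0.68, adjusted p = 1.09e-05). Dppa3, which protects the maternal genome from demethylation, read 161, 155 and 355 FPKM in GV and 42.8, 28.5 and 42.2 FPKM in two-cell (2.47 ± 0.38, adjusted p = 3.99e-05), again without overlap.

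The 3 maternal effect genes that were higher in two-cell were Npm2, Spin1 and Tcl1. Npm2, nucleoplasmin 2, which remodels sperm chromatin and organises nucleoli, read 2.78, 3.11 and 3.53 FPKM in GV and 15.3, 19.6 and 26.0 FPKM in two-cell (-2.66 ± 0.55, adjusted p = 0.00111). Spin1, a histone methylation reader, read 9.54, 8.15 and 8.95 FPKM in GV and 30.9, 17.6 and 28.0 FPKM in two-cell (-1.48 ± 0.37, adjusted p = 0.00579). Tcl1, a coactivator of the AKT kinase, is described with its gene cluster further on.

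**Figure D2:**
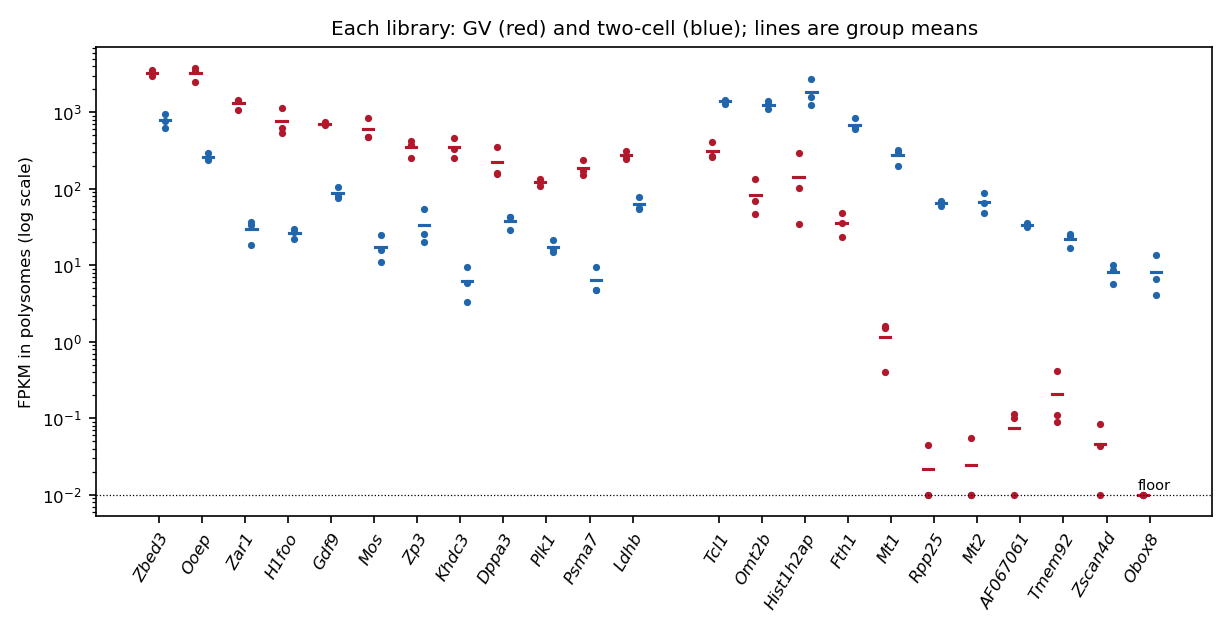
FPKM on a log axis in each polysome library for 23 genes, with GV libraries in red, two-cell libraries in blue, and a short line at each group's mean. In all 23 the 3 GV and 3 two-cell values do not overlap, which was a condition for genes named by list or by size. Obox8 is at the floor in all GV libraries.

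Meiotic and cell cycle regulators split by gene. Of 22 tested genes of meiotic arrest and maturation 4 were called higher in GV and 0 higher in two-cell, with a median of 1.82. The 4 included Mos, Prkar1a and Cdk1 and made up 18.2%, against 16.7% of all genes. After quantile normalization 8 were higher in GV and 1 higher in two-cell. Mos, a kinase of meiotic maturation, read 481, 837 and 478 FPKM in GV and 16.0, 24.8 and 11.1 FPKM in two-cell (5.14 ± 1.44, adjusted p = 0.0135). Prkar1a, the regulatory subunit that holds protein kinase A inactive until cyclic AMP binds it, read 14.4, 12.6 and 19.7 FPKM in GV and 0.381, 0.924 and 0.302 FPKM in two-cell (5.01 ± 0.86, adjusted p = 1.48e-04). Neither Mos nor Prkar1a overlapped between the groups, which was a condition for list members to be named.

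Cdk1, the kinase of M-phase entry, read 19.4, 16.8 and 20.4 FPKM in GV and 2.27, 0.219 and 0.893 FPKM in two-cell (4.62 ± 0.61, adjusted p = 3.91e-06), with a GV spread that was small beside the difference. Its cyclin Ccnb1 was not called and read 32.8, 31.6 and 47.8 FPKM in GV and 27.7, 27.0 and 17.3 FPKM in two-cell (adjusted p = 0.322). Among 20 tested cyclins, Cdks and their regulators 2 were called higher in GV and 1 higher in two-cell, with a median of 0.39. After quantile normalization 2 were higher in GV and 2 higher in two-cell, with a median of -0.28. By the main counts 15% were called, near the 16.7% of all genes. The gene higher in two-cell was Cks2, a small Cdk-binding protein, at 5.32, 10.3 and 1.81 FPKM in GV and 21.8, 21.1 and 25.1 FPKM in two-cell (-2.29 ± 0.45, adjusted p = 6.03e-04). Wee2, the oocyte kinase that inhibits CDK1, read 3.46, 2.19 and 6.37 FPKM in GV and 25.5, 7.56 and 11.4 FPKM in two-cell and was not called (adjusted p = 0.118; 0.00712 and higher in two-cell after quantile normalization).

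Of 33 tested spindle checkpoint and APC/C genes 7 were called higher in GV and 1 higher in two-cell (24.2%, against 16.7% of all genes). The median of 0.89 was close to that of all genes. After quantile normalization 8 were higher in GV and 4 higher in two-cell. Plk1, a mitotic kinase, read 134, 109 and 123 FPKM in GV and 14.9, 16.3 and 21.4 FPKM in two-cell (2.81 ± 0.76, adjusted p = 0.0106). Anapc11, the catalytic RING subunit of the APC/C, read 24.7, 31.8 and 6.92 FPKM in GV and 2.07, 2.82 and 2.66 FPKM in two-cell (2.82 ± 0.52, adjusted p = 3.25e-04). Cdc20, the APC/C activator of metaphase, went the other way with 4.77, 5.85 and 4.48 FPKM in GV and 23.0, 35.9 and 23.4 FPKM in two-cell (-2.42 ± 0.36, adjusted p = 2.17e-05). The separation was complete in each of these genes, which was a condition for list members to be named. DNA replication factors gave 3 calls higher in GV and 0 higher in two-cell among 42 tested (7.14%, against 16.7% of all genes). After quantile normalization 3 were higher in GV and 1 higher in two-cell. Gins4, a subunit of the replicative helicase, read 51.2, 44.8 and 64.5 FPKM in GV and 2.504, 4.06 and 1.36 FPKM in two-cell (4.46 ± 0.94, adjusted p = 0.00131). Of the 5 tested genes of synapsis, recombination and meiotic cohesin limma called 0, with 1 at an unadjusted p under 0.05 and 0 called after quantile normalization (median 2.51), and 18 of the 23 in the table failed the minimum level.

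Genes of mRNA clearance gave calls in both directions among 19 tested, 1 higher in GV and 2 higher in two-cell (15.8%, near the 16.7% of all genes). The median of 0.35 became -0.44 after quantile normalization, with 2 higher in GV and 4 higher in two-cell. Pabpn1l, a poly(A)-binding protein needed for maternal mRNA decay, read 266, 324 and 296 FPKM in GV and 9.87, 17.9 and 18.5 FPKM in two-cell (4.31 ± 0.89, adjusted p = 0.00111). Zfp36l2, which binds AU-rich elements and promotes decay, read 2.21, 2.89 and 2.79 FPKM in GV and 29.4, 73.4 and 42.7 FPKM in two-cell (-4.11 ± 1.32, adjusted p = 0.0309), but the call was lost without GV library A, GV library B, GV library C, two-cell library B or two-cell library C, with an adjusted p of 0.0630 to 0.0980. The other call higher in two-cell was Cnot2, a subunit of the CCR4-NOT deadenylase, for which the call was lost without GV library A, GV library B, two-cell library A, two-cell library B or two-cell library C, with an adjusted p of 0.0704 to 0.175. Btg4, the adaptor that recruits the deadenylase in maturing oocytes, read 9.22, 7.87 and 19.0 FPKM in GV and 7.41, 5.78 and 6.30 FPKM in two-cell and was not called (adjusted p = 0.361).

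Genes of the respiratory chain, mitochondrial ribosome and proteasome were mostly called higher in GV where called, as were all genes tested (12.3% higher in GV against 4.39% higher in two-cell). Of 74 tested genes of oxidative phosphorylation, 67 had a positive log2 fold change, as did 5220 of all 7967 genes tested. In this list 20 were called higher in GV and 1 (Atp5g1, of ATP synthase) higher in two-cell (28.4%, against 16.7% of all genes), with a median of 1.90. After quantile normalization 20 were higher in GV and 3 higher in two-cell, with a median of 1.32. For Atp5g1 the call was lost without GV library A, GV library C, two-cell library B or two-cell library C, with an adjusted p of 0.0539 to 0.270. Uqcrc2, a core subunit of complex III, read 51.9, 22.2 and 81.2 FPKM in GV and 1.13, 0.272 and 0.472 FPKM in two-cell (6.43 ± 1.23, adjusted p = 4.97e-04). Ndufa10, of complex I, read 21.4, 16.0 and 39.1 FPKM in GV and 0.754, 0.0441 and 0.522 FPKM in two-cell (6.52 ± 1.31, adjusted p = 8.09e-04). Both were near 1 FPKM or lower in every two-cell library. Atp5b, the beta subunit of ATP synthase, was more abundant and changed less, with 147, 120.4 and 145 FPKM in GV and 34.0, 39.7 and 28.3 FPKM in two-cell (2.02 ± 0.39, adjusted p = 6.13e-04). Slc25a4, the ADP/ATP carrier of the inner membrane, went from 30.7, 16.0 and 35.3 FPKM to 0.707, 0.688 and 0.103 FPKM (6.13 ± 1.44, adjusted p = 0.00353).

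Mitochondrial ribosomal protein genes gave 16 calls higher in GV and 0 higher in two-cell among 73 tested (21.9%, against 16.7% of all genes). The median was 1.48 (0.98 after quantile normalization), against 0.85 over all genes. Mrpl45 read 23.3, 11.6 and 45.8 FPKM in GV and 1.12, 0.502 and 0.437 FPKM in two-cell (5.21 ± 1.36, adjusted p = 0.00830), and Mrps15 read 10.4, 8.88 and 13.6 FPKM in GV and 0.112, 1.02 and 0.192 FPKM in two-cell (5.27 ± 1.24, adjusted p = 0.00350). Of the calls in these lists, 9 of the 20 for oxidative phosphorylation and 10 of the 16 for mitochondrial ribosomes were made in all 6 leave-one-out fits, so the rest were lost in at least 1 of them.

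Among 33 tested proteasome genes 9 were called higher in GV and 1 higher in two-cell (30.3%, against 16.7% of all genes). The median was 2.49 (2.12 after quantile normalization), the highest median of a list with over 10 members tested. Psma7, a subunit of the catalytic core, read 172, 152 and 239 FPKM in GV and 4.74, 4.82 and 9.56 FPKM in two-cell (4.93 ± 1.12, adjusted p = 0.00274). The exception was Psmb10, a subunit of the immunoproteasome, listed at or near the floor in GV (0.01, 0.01 and 0.0249 FPKM) and at 7.06, 0.133 and 2.00 FPKM in two-cell (adjusted p = 0.0167), for which the call was lost without GV library A, GV library B, two-cell library A or two-cell library C, with an adjusted p of 0.0503 to 0.0933. Of the 9 calls higher in GV, 4 were made in all 6 leave-one-out fits.

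Energy metabolism beyond the respiratory chain showed a lactate dehydrogenase pair with opposite directions. Ldhb, the subunit that prevails in the oocyte, read 242, 272 and 312 FPKM in GV and 54.4, 77.7 and 57.0 FPKM in two-cell (2.14 ± 0.35, adjusted p = 9.26e-05). Ldha, the subunit common in glycolytic tissues, was listed at or near the floor in GV (0.01, 0.0148 and 0.01 FPKM) and at 1.56, 1.91 and 4.96 FPKM in two-cell (adjusted p = 0.00658). Even so, Ldhb remained the more abundant of the pair on the FPKM scale in every two-cell library. Over the 31 tested genes of glycolysis, pyruvate and lactate 4 were called higher in GV and 1 higher in two-cell (median 0.63). The 16.1% called was near the 16.7% of all genes. After quantile normalization the order of the counts reversed, with 4 higher in GV, 5 higher in two-cell and a median of -0.20.

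Cytosolic ribosomal protein genes did not move as a block. Of 81 tested, 14 were called higher in GV and 6 higher in two-cell (24.7%, against 16.7% of all genes). The list median of 0.04 lay below the 0.85 of all genes. In all 6 leave-one-out fits 8 of the 14 and 2 of the 6 were called. After quantile normalization the order of the counts reversed, with 11 higher in GV, 19 higher in two-cell and a median of -0.70. Rpl35 read 41.6, 65.0 and 10.8 FPKM in GV and 1.006, 1.60 and 1.84 FPKM in two-cell (4.42 ± 0.62, adjusted p = 9.72e-06) and Rpl4 read 8.06, 5.64 and 16.1 FPKM in GV and 0.905, 0.473 and 1.12 FPKM in two-cell (3.53 ± 0.88, adjusted p = 0.00554). In the other direction, Rps19 read 0.449, 0.509 and 0.106 FPKM in GV and 2.18, 5.48 and 5.38 FPKM in two-cell (-3.79 ± 0.94, adjusted p = 0.00546) and Rpl10a read 0.254, 0.240 and 0.179 FPKM in GV and 2.70, 1.63 and 2.75 FPKM in two-cell (-3.37 ± 0.75, adjusted p = 0.00214). Ribosomal protein genes have many processed pseudogenes, so reads can be split between a gene and its copies.

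Translation factors gave 8 calls higher in GV and 0 higher in two-cell among 50 tested (16.0%, near the 12.3% of all genes). The median was 0.74, and 3 of the 8 were called in all 6 leave-one-out fits. After quantile normalization 9 were higher in GV, 6 higher in two-cell and the median was -0.45. Eif3k, a subunit of the eIF3 initiation complex, read 16.8, 35.9 and 10.4 FPKM in GV and 2.34, 3.81 and 6.07 FPKM in two-cell (2.28 ± 0.52, adjusted p = 0.00258). Eif4a3, a helicase of the exon junction complex, read 14.9, 16.8 and 16.5 FPKM in GV and 2.69, 2.42 and 1.23 FPKM in two-cell (3.004 ± 0.88, adjusted p = 0.0183), and the call was lost without GV library C or two-cell library C, with an adjusted p of 0.0510 to 0.0797. Eif1ax, an initiation factor often used as a sign of embryonic transcription, was at 0.821, 0.545 and 2.24 FPKM in GV and 0.291, 0.626 and 0.632 FPKM in two-cell and was not called (adjusted p = 0.582). In the mTOR and S6 kinase pathway only Rheb, the GTPase that activates mTOR, was called among 26 tested (3.85%, against 16.7% of all genes). Rheb was higher in GV. The call was lost without GV library B, GV library C or two-cell library A, with an adjusted p of 0.0563 to 0.105. The list median of 0.42 became -0.10 after quantile normalization, with 4 higher in GV and 2 higher in two-cell.

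Genes of the nuclear RNA machinery were called in both directions, with a balance that shifted with scaling. Splicing genes gave 7 calls higher in GV and 0 higher in two-cell among 47 tested (14.9%, near the 12.3% of all genes). The median was 1.34, and 3 of the 7 were called in all 6 leave-one-out fits. There were 6 higher in GV and 3 higher in two-cell after quantile normalization. RNA polymerase II and general factors gave 9 higher in GV and 2 higher in two-cell among 38 tested (28.9%, against 16.7% of all genes). The median was 1.44, and 3 of the 9 and 1 of the 2 were called in all 6 leave-one-out fits. There were 6 higher in GV and 5 higher in two-cell after quantile normalization. Taf7, a subunit of TFIID, read 37.1, 44.1 and 80.0 FPKM in GV and 3.78, 3.39 and 1.88 FPKM in two-cell (4.13 ± 1.06, adjusted p = 0.00719). Polr2c, a core subunit of the polymerase, went the other way with 6.74, 10.7 and 3.55 FPKM in GV and 23.3, 30.9 and 25.4 FPKM in two-cell (-2.05 ± 0.40, adjusted p = 6.96e-04), as did the elongation factor Supt4a (5.49, 12.8 and 2.09 FPKM and 18.1, 24.8 and 21.9 FPKM, -2.02 ± 0.51, adjusted p = 0.00661), for which the call was lost without GV library C, with an adjusted p of 0.0786. The 3 GV libraries of Polr2c and Supt4a all stayed below the two-cell libraries.

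Nucleolar ribosome biogenesis gave 6 calls higher in GV and 3 higher in two-cell among 44 tested (20.5%, against 16.7% of all genes). The median was 1.21, and 2 of the 6 and all 3 were called in each leave-one-out fit. There were 7 higher in GV and 6 higher in two-cell after quantile normalization. Its members include subunits of RNase P and MRP, the complexes that trim tRNA and ribosomal RNA precursors, of which Pop4, Pop5, Pop7, Rpp21 and Rpp30 were tested and not called (adjusted p = 0.368 to 0.787). Rpp38 read 14.2, 6.94 and 24.3 FPKM in GV and 1.28, 0.0229 and 0.01 FPKM in two-cell (adjusted p = 0.00258), whereas Rpp25 (chr9:57504026-57505448, plus strand) was listed at or near the floor in GV (0.01, 0.0446 and 0.01 FPKM) and at 68.0, 60.5 and 68.9 FPKM in two-cell (adjusted p = 1.23e-06). The 3 two-cell values of Rpp25 lay close together. Nip7, which acts in maturation of the large ribosomal subunit, rose from 1.59, 2.12 and 1.92 FPKM to 6.59, 11.9 and 8.90 FPKM (-2.25 ± 0.44, adjusted p = 6.65e-04), and Nop56, a core protein of box C/D particles, read 68.8, 39.3 and 209.8 FPKM in GV and 3.86, 4.01 and 2.47 FPKM in two-cell (4.62 ± 1.21, adjusted p = 0.00859), for which the call was lost without GV library C, with an adjusted p of 0.0570.

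DNA methylation and maternal chromatin genes gave 4 higher in GV and 0 higher in two-cell among 28 tested (14.3%, near the 12.3% of all genes). The median was 0.60. There were 7 higher in GV and 3 higher in two-cell after quantile normalization (median -0.24). Cytoskeleton and adhesion genes gave 6 higher in GV and 0 higher in two-cell among 26 tested (23.1%, against 16.7% of all genes). The median was 0.88, and all 6 were also called in each leave-one-out fit. The counts were 6 higher in GV and 3 higher in two-cell after quantile normalization. Krt18, a keratin of simple epithelia that failed the minimum level, was listed at the floor in the GV libraries and at 23.7, 25.1 and 9.25 FPKM in two-cell, and with no minimum level it was called higher in two-cell (adjusted p = 6.44e-10). Lmna, the gene of nuclear lamins A and C, read 59.0, 49.2 and 38.0 FPKM in GV and 4.37, 7.64 and 5.29 FPKM in two-cell (3.10 ± 0.80, adjusted p = 0.00782), and Arpc2, of the actin-nucleating Arp2/3 complex, read 9.65, 5.90 and 17.8 FPKM in GV and 0.813, 0.718 and 0.613 FPKM in two-cell (3.82 ± 0.95, adjusted p = 0.00542). Early embryo transcription factors gave 3 higher in GV and 1 higher in two-cell among 18 tested (22.2%, against 16.7% of all genes). The median was 0.08. After quantile normalization the order of the counts turned, with 3 higher in GV, 4 higher in two-cell and a median of -0.61. Klf17, a zinc-finger factor, read 518, 266 and 969 FPKM in GV and 151, 53.0 and 72.1 FPKM in two-cell (2.62 ± 0.42, adjusted p = 7.08e-05), while Pou5f1, the pluripotency factor OCT4, read 38.5, 43.8 and 114 FPKM in GV and 75.8, 101 and 56.6 FPKM in two-cell with overlapping groups (adjusted p = 0.869).

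The largest falls not yet described were picked by size among called protein-coding genes without overlap between the groups. These averaged 10 FPKM or more over the 6 libraries and had none at the floor. Mettl7a3, a methyltransferase-like gene, read 39.4, 46.5 and 19.0 FPKM in GV and 1.19, 0.1004 and 0.0230 FPKM in two-cell (7.86 ± 1.33, adjusted p = 1.26e-04). Plbd2, a lysosomal phospholipase-like protein, read 33.1, 29.1 and 19.2 FPKM in GV and 0.234, 0.999 and 0.118 FPKM in two-cell (6.45 ± 1.36, adjusted p = 0.00132), and Ecd, a cell cycle and splicing regulator, read 21.4, 15.6 and 44.0 FPKM in GV and 0.146, 0.375 and 0.414 FPKM in two-cell (6.43 ± 1.23, adjusted p = 5.01e-04). The uncharacterised genes 2310033P09Rik and Gm813 fell in the same way, with log2 fold changes of 7.16 ± 1.52 and 6.67 ± 1.37 and adjusted p of 0.00143 and 0.00108. None of these 5 genes exceeded 3.81 FPKM in a two-cell library, and none was under 15.6 FPKM in a GV library.

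**Figure D3:**
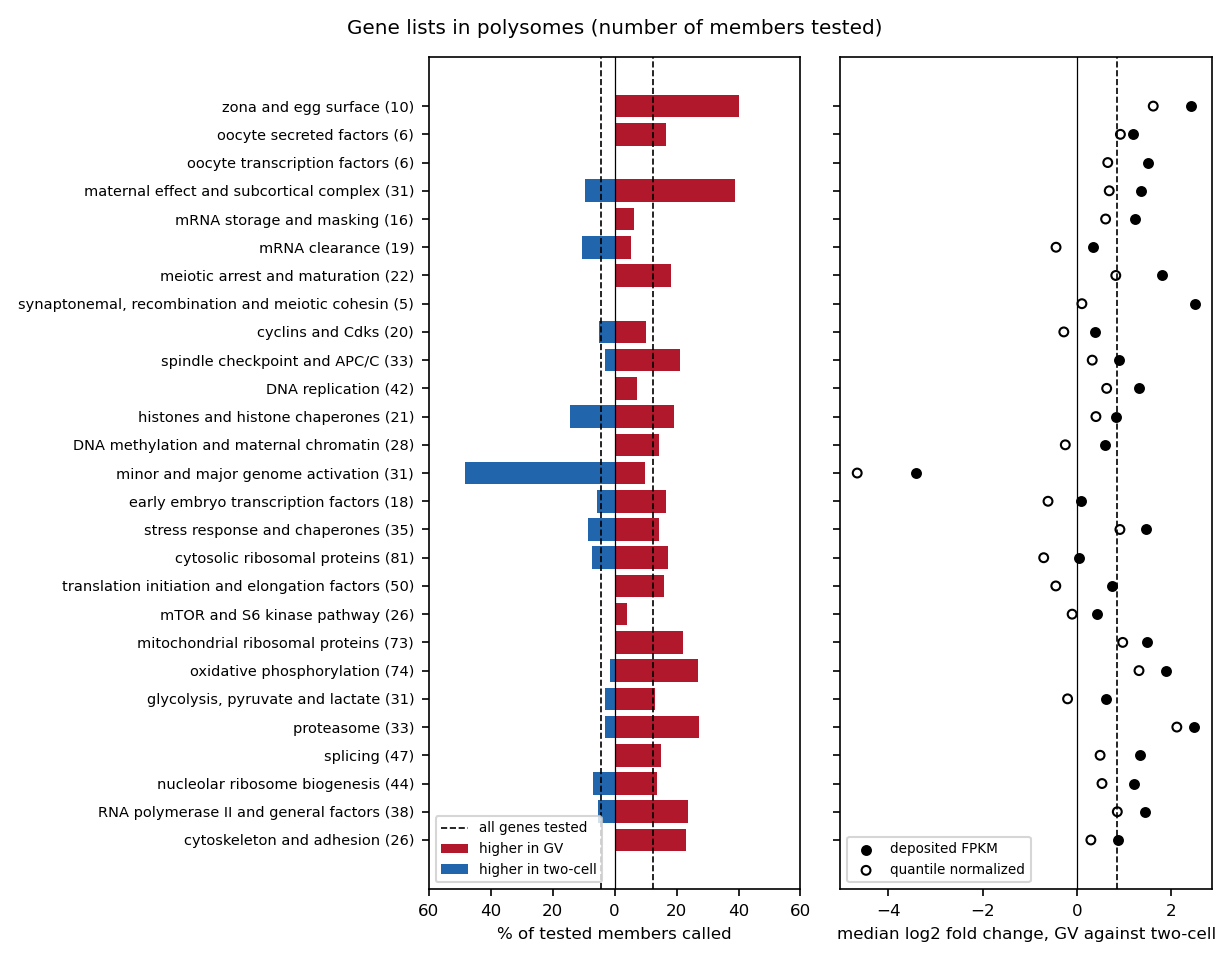
Left, the percentage of the tested members of 27 gene lists called higher in GV (red, to the right) or higher in two-cell (blue, to the left), with dashed lines at the shares of all genes (12.3% and 4.39%). Right, the median log2 fold change of each list from the deposited FPKM (filled) and after quantile normalization (open), with a dashed line at 0.85; the genome activation list is the only one below -1 on both scales.

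Calls among genes of the minor and major genome activation were mostly higher in two-cell polysomes. Of 31 tested members 15 were called higher in two-cell and 3 higher in GV (58.1%, against 16.7% of all genes). The median log2 fold change was -3.42 (-4.66 after quantile normalization), and 11 of the 15 were called in all 6 leave-one-out fits. Another 22 members failed the minimum level over the 36 libraries, and with no minimum 25 of the 53 in the table were called higher in two-cell and 3 higher in GV, against 3.05% and 5.89% of all 23125 genes. Such genes are known for this pattern, and these lists were drawn up with results of these data known, so the counts describe the libraries and are not independent evidence of direction. Many belong to families of near-identical copies among which reads may be split.

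In the Zscan4 cluster, whose upstream sequences are shown above, Zscan4c read 0.0758, 0.01 and 0.0103 FPKM in GV and 9.27, 2.38 and 5.55 FPKM in two-cell (adjusted p = 0.00344). Zscan4f read 0.01, 0.125 and 0.0197 FPKM in GV and 7.98, 2.71 and 5.16 FPKM in two-cell (adjusted p = 0.00627). Zscan4d read 0.01, 0.0845 and 0.0437 FPKM in GV and 9.96, 8.62 and 5.69 FPKM in two-cell (adjusted p = 0.0274), and the call was lost without GV library A, GV library C, two-cell library A, two-cell library B or two-cell library C, with an adjusted p of 0.0561 to 0.106. The two-cell values were of a like size in the 3 genes, and no GV value exceeded 0.125 FPKM. Zscan4a, Zscan4b and Zscan4e failed the minimum level, and Zscan4a read 7.74, 4.33 and 1.41 FPKM in two-cell with 0.01, 0.01 and 0.0184 FPKM in GV.

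Other transient two-cell genes were likewise low in GV. Tmem92, a transmembrane protein gene, read 0.111, 0.0908 and 0.422 FPKM in GV and 23.98, 16.7 and 25.7 FPKM in two-cell (-7.07 ± 1.02, adjusted p = 1.35e-05). AF067061, a Tcstv-like gene, read 0.101, 0.115 and 0.01 FPKM in GV and 35.9, 33.4 and 31.3 FPKM in two-cell (adjusted p = 1.96e-04), and Gm8994 read 0.712, 0.283 and 0.572 FPKM in GV and 46.4, 16.3 and 12.9 FPKM in two-cell (-5.46 ± 0.98, adjusted p = 2.36e-04). Gm4027 was listed at or near the floor in GV (0.0204, 0.01 and 0.01 FPKM) and at 15.03, 8.23 and 16.0 FPKM in two-cell (adjusted p = 1.22e-06). Obox8, of the oocyte-specific homeobox family, was listed at the floor in all 3 GV libraries and at 4.13, 6.60 and 13.7 FPKM in two-cell (adjusted p = 3.70e-09). Zfp352, a zinc-finger gene of the two-cell stage, was likewise at the floor in GV and at 5.63, 5.10 and 4.37 FPKM in two-cell, and was tested only with no minimum level (adjusted p = 0.00146).

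Not every gene of the list rose. Tcstv1 and Tcstv3 were both present in GV, and Tcstv3 read 30.5, 54.8 and 24.8 FPKM in GV and 60.2, 72.2 and 38.2 FPKM in two-cell (adjusted p = 0.834). Ddx39, an RNA helicase of mRNA export, was higher in GV (15.3, 11.7 and 20.8 FPKM and 4.09, 1.59 and 5.35 FPKM, 2.25 ± 0.48, adjusted p = 0.00163). Hspa1a and Hspa1b, heat shock genes induced at genome activation, were scattered: Hspa1a read 2.31, 0.01 and 1.46 FPKM in GV and 0.0265, 11.4 and 0.01 FPKM in two-cell, and the groups overlapped in both (adjusted p = 0.816 and 0.957).

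Metal and iron binding genes gave some of the largest values in two-cell polysomes. Mt1 and Mt2, neighbouring genes on chromosome 8 (chr8:94179082-94180327 and chr8:94172664-94173568, both on the plus strand), encode metallothioneins, which buffer zinc and copper. Mt1 read 1.51, 1.59 and 0.399 FPKM in GV and 201, 304 and 325 FPKM in two-cell (-8.10 ± 0.72, adjusted p = 5.41e-09). Mt2 was listed at or near the floor in GV (0.01, 0.01 and 0.0546 FPKM) and at 48.6, 66.0 and 87.6 FPKM in two-cell (adjusted p = 5.51e-08). Every two-cell library was far above every GV library for both genes. Fth1, the ferritin heavy chain, read 35.2, 47.7 and 23.7 FPKM in GV and 604, 832 and 642 FPKM in two-cell (-4.33 ± 0.43, adjusted p = 3.27e-08), and Ftl1, the light chain, read 107, 153 and 100.3 FPKM in GV and 506, 1109.7 and 527 FPKM in two-cell (-2.501 ± 0.37, adjusted p = 1.95e-05). In GV polysomes both ferritin chains read higher than either metallothionein in every library. These genes were grouped after their values were seen. With Mt4, which was low and not called (adjusted p = 0.127), 4 of 5 were called (80%, against 16.7% of all genes).

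Within the list of stress response and chaperone genes, which holds Mt1 and Mt2, 5 of 35 tested were called higher in GV and 3 higher in two-cell. These made up 22.9%, against 16.7% of all genes, and the list median was 1.46. In all 6 leave-one-out fits 2 of the 5 and all 3 were called. There were 6 higher in GV and 4 higher in two-cell after quantile normalization. The third gene higher in two-cell was Prdx2, a peroxiredoxin that removes hydrogen peroxide, at 267, 348 and 199 FPKM in GV and 736, 1102 and 788 FPKM in two-cell (-1.70 ± 0.41, adjusted p = 0.00440). Hspe1, the mitochondrial co-chaperonin, went the other way with 25.8, 23.9 and 19.9 FPKM in GV and 3.47, 9.37 and 6.503 FPKM in two-cell (1.95 ± 0.46, adjusted p = 0.00345). Glul, glutamine synthetase, was outside the list and among the largest changes (0.968, 2.61 and 0.817 FPKM in GV and 41.6, 58.6 and 36.4 FPKM in two-cell, -5.13 ± 1.07, adjusted p = 0.00123), as was Mad2l1bp, which binds the checkpoint protein MAD2 (1.36, 0.921 and 2.92 FPKM and 55.8, 50.4 and 48.8 FPKM, -5.07 ± 0.93, adjusted p = 3.07e-04). In Glul and Mad2l1bp no two-cell library was below 36.4 FPKM and no GV library was above 2.92 FPKM.

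Not all RNA that was higher in two-cell polysomes was absent from the oocyte. The Tcl1 cluster on chromosome 12 holds Tcl1 and 5 Tcl1b genes, oocyte and early embryo genes of one family. All 6 were called higher in two-cell (median -3.92), as were 4.39% of all genes, and 4 of the 6 in each leave-one-out fit. Tcl1, at chr12:105216750-105222793 on the minus strand, read 269, 405 and 264 FPKM in GV and 1285, 1401 and 1468 FPKM in two-cell (-2.18 ± 0.56, adjusted p = 0.00795). Tcl1b1, whose upstream sequence is shown above, read 24.5, 61.0 and 18.6 FPKM in GV and 376, 471 and 421 FPKM in two-cell (-3.80 ± 0.41, adjusted p = 1.57e-07), and Tcl1b4 read 8.98, 12.2 and 4.26 FPKM in GV and 168, 223 and 173 FPKM in two-cell (-4.59 ± 0.77, adjusted p = 1.15e-04). Among GV libraries B was the highest in all 6 genes, and still below every two-cell library. For Tcl1b2 the call was lost without GV library A, GV library C or two-cell library B, with an adjusted p of 0.0531 to 0.0905, and for Tcl1b3 the call was lost without GV library A, GV library C, two-cell library A, two-cell library B or two-cell library C, with an adjusted p of 0.0615 to 0.103. The cluster was put together after its values were seen, and its members share sequence.

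Omt2a and Omt2b, oocyte maturation genes that lie side by side on chromosome 9, had like values. Omt2a read 24.2, 39.95 and 19.4 FPKM in GV and 454, 478 and 512 FPKM in two-cell (-4.18 ± 0.39, adjusted p = 1.11e-08) and Omt2b read 69.1, 136 and 46.3 FPKM in GV and 1089.6, 1394 and 1269 FPKM in two-cell (-4.04 ± 0.39, adjusted p = 1.54e-08). The two-cell libraries agreed to within a narrow range in both genes. In zygote polysomes, at 23.6 FPKM and 60.5 FPKM on average, these genes were near their GV level. They were higher in MII polysomes (299 and 824 FPKM) and in zygote M polysomes (439 and 1074 FPKM).

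Histone FPKM differed by type. The kit primes from poly(A), so a difference in the tail and one in the number of molecules cannot be told apart. Among 38 tested replication-dependent histone genes, which are used in S-phase, 4 were called higher in two-cell and 2 higher in GV, with a median of -1.94. The 15.8% called was near the 16.7% of all genes. After quantile normalization the counts were 13 and 1, and the list was formed after values were seen. Hist1h2ap, an H2A gene, read 104, 292 and 34.4 FPKM in GV and 1240.4, 2758 and 1568 FPKM in two-cell (-4.11 ± 0.53, adjusted p = 2.29e-06). Hist1h4a, an H4 gene, read 2.85, 1.39 and 1.10 FPKM in GV and 17.4, 48.8 and 31.0 FPKM in two-cell (-4.19 ± 0.94, adjusted p = 0.00245). GV values of Hist1h2ap varied widely between libraries, with B highest and C lowest, and two-cell library B was the highest as well. The 2 linker histone genes Hist1h1d and Hist1h1e were the ones higher in GV; for Hist1h1d the call was lost without GV library A, GV library B or two-cell library C, with an adjusted p of 0.0540 to 0.0696, and for Hist1h1e the call was lost without two-cell library A, with an adjusted p of 0.0753.

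Among histone variants and chaperones 4 of 21 tested were called higher in GV and 3 higher in two-cell (33.3%, against 16.7% of all genes). The median was 0.82, and 2 of the 4 and all 3 were called in each leave-one-out fit. There were 3 higher in GV and 6 higher in two-cell after quantile normalization (median 0.41). H2afz, the variant H2A.Z, read 3.66, 1.79 and 5.19 FPKM in GV and 40.3, 60.9 and 22.3 FPKM in two-cell (-3.55 ± 0.54, adjusted p = 2.67e-05). H3f3b, one of the genes of the variant H3.3, read 73.8, 78.1 and 92.9 FPKM in GV and 29.4, 34.7 and 30.7 FPKM in two-cell (1.36 ± 0.22, adjusted p = 8.59e-05), a small change with a small spread. H3f3a, the other H3.3 gene, changed in the same direction (13.2, 9.64 and 22.8 FPKM and 3.28, 4.58 and 3.24 FPKM, 1.97 ± 0.54, adjusted p = 0.0114), and the call was lost without GV library C, with an adjusted p of 0.0738. H2afz and the H3.3 genes thus went in opposite directions.

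Hba-a1, an adult alpha globin gene, was listed at the floor in all 3 GV libraries and at 43.8, 82.9 and 33.5 FPKM in two-cell (adjusted p = 6.76e-05). The other markers of red blood cells did not share this level. Hba-a2, which encodes the same protein, was at 0.234, 0.737 and 0.755 FPKM in two-cell, and the beta globin genes Hbb-bs and Hbb-bt were at most 0.0404 FPKM in all 6 libraries. The 6 red blood cell markers in the table summed to at most 0.176 FPKM in GV and to 34.3 to 83.7 FPKM in two-cell, nearly all of it from Hba-a1.

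In two-cell polysomes more of the summed FPKM was assigned outside annotated protein-coding genes. Protein-coding genes made up 74.2%, 70.6% and 76.1% of the summed FPKM in GV and 55.8%, 62.6% and 51.0% in two-cell. TEC transcripts, loci annotated from sequence evidence that is yet to be tested, made up 0.950%, 0.907% and 1.67% in GV and 13.2%, 6.87% and 13.8% in two-cell. Of 90 tested TEC transcripts 26 were called higher in two-cell and 2 higher in GV (31.1%, against 16.7% of all genes). In all 6 leave-one-out fits 19 of the 26 and 0 of the 2 were called. There were 0 higher in GV and 47 higher in two-cell after quantile normalization, and this class was chosen after values were seen. Unprocessed pseudogenes rose from 1.70% ± 0.396 to 6.399% ± 2.42 and lincRNAs from 1.77% ± 0.131 to 5.05% ± 1.30 (SD, n = 3 each), whereas processed pseudogenes were at 16.1% ± 2.40 in GV and 10.6% ± 0.602 in two-cell. None of these shares overlapped between the groups. A few loci carried much of them. The 3 neighbouring loci at chr1:24613189-24615565, Gm28437, Gm10925 and Gm28661, held 54.1% to 64.1% of the unprocessed pseudogene share in two-cell and 52.4% to 67.5% in GV. Pseudogenes can share sequence with other genes, and whether reads at these loci came from them was not tested. Without these 3 loci the class was at 0.678% ± 0.269 and 2.46% ± 0.675 in GV and two-cell. Without its 3 most abundant members the lincRNA class was at 1.32% ± 0.0716 and 1.53% ± 0.210, with overlapping groups. The TEC class was then at 0.632% ± 0.178 and 4.48% ± 1.41, without overlap (SD, n = 3 each). In these comparisons 3 against 3 cannot give an exact p under 0.1.

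The most abundant TEC transcript in two-cell polysomes was Gm36976 (chr3:43547173-43548282). It read 137, 121 and 252 FPKM in GV and 3820.2, 2085 and 3783 FPKM in two-cell (-4.27 ± 0.37, adjusted p = 3.70e-09). Gm36958 (chr9:102764635-102766509) read 195, 163 and 325 FPKM in GV and 2640.1, 1625 and 3126 FPKM in two-cell (-3.45 ± 0.43, adjusted p = 1.42e-06), and Gm42553 (chr5:43059255-43060883) read 70.1, 84.4 and 125 FPKM in GV and 1522, 922 and 1991 FPKM in two-cell (-3.96 ± 0.38, adjusted p = 1.75e-08). In all 3 transcripts two-cell library B was the lowest of its group, the same library that had the smallest TEC share. They were not new at the two-cell stage: their means in zygote polysomes were 1361, 1436 and 803 FPKM. The library kit does not mark strand, so reads from these loci and from genes on the opposite strand cannot be told apart.

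**Figure D4:**
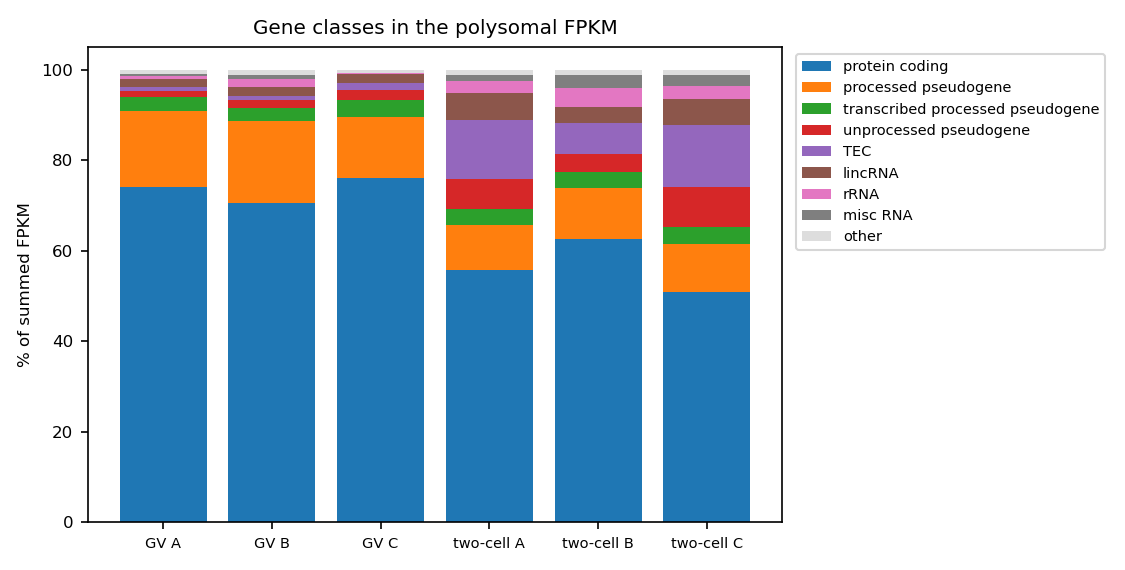
Stacked bars give the percentage of summed FPKM from each annotated gene class in the 6 polysome libraries. Protein-coding genes account for 70.6% to 76.1% in GV and 51.0% to 62.6% in two-cell, and the TEC class is the one that grows most.

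The intermediate stages place these differences in time, as a description. Over the 981 genes called higher in GV, the median of the mean polysomal FPKM was 3.82 in GV, 1.96 in MII oocytes, 1.78 in zygotes and 0.281 in two-cell. Over the 350 genes called higher in two-cell it was 0.237 in GV, 0.600 in MII, 0.533 in zygotes and 8.22 in two-cell. Mt1 was at 0.422 FPKM and Rpp25 at 0.0537 FPKM in zygote polysomes, both far below their two-cell level. Fth1 was already at 229.8 FPKM and Npm2 at 11.3 FPKM in the zygote, between their GV and two-cell levels. On the falling side, Zar1 stood at 208 FPKM, Gdf9 at 332 FPKM and H1foo at 79.7 FPKM in the zygote.

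**Figure D5:**
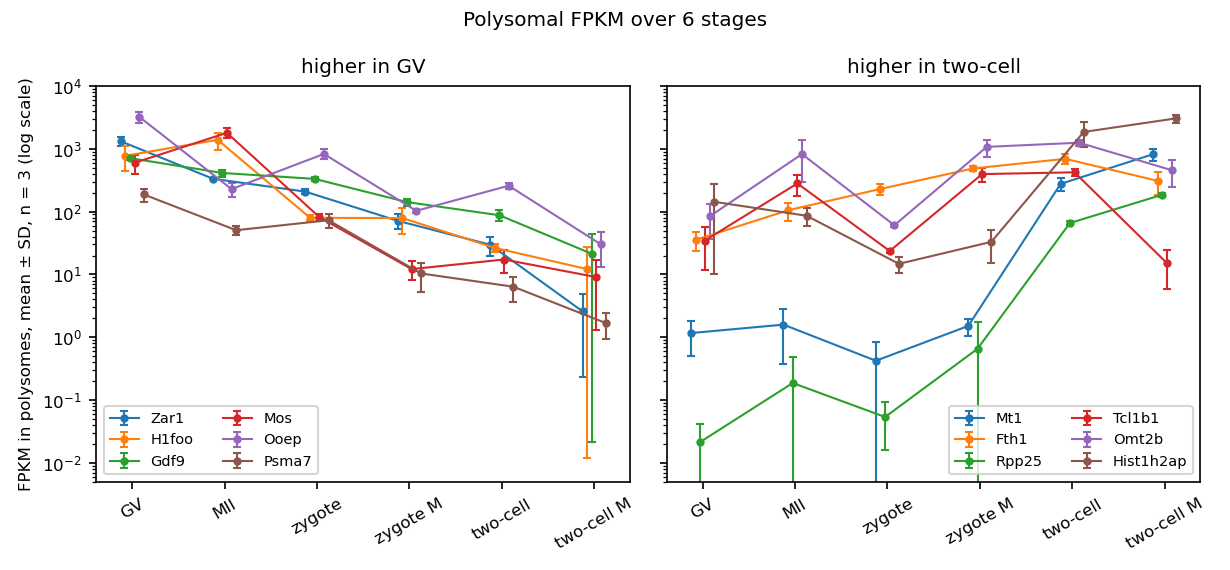
Mean polysomal FPKM ± SD (n = 3, log axis) at 6 stages, where M marks nocodazole-arrested M-phase embryos, for 6 genes higher in GV (left) and 6 higher in two-cell (right). Mt1 and Rpp25 stay low up to the zygote M stage, while Tcl1b1 and Omt2b are high in MII and zygote M, low in the zygote and high in two-cell.

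To see whether the polysomal differences were particular to that fraction, the change in polysomes was compared with the change in the non-polysome pool of the same gradients. In the non-polysome fraction 1565 genes (19.6%) were called higher in GV and 799 (10.0%) higher in two-cell. Of the 1331 polysomal calls, 775 were called in the same direction in the non-polysome fraction, which is 58.2% of the polysomal and 32.8% of the 2364 non-polysomal calls, and 9 were called in the opposite direction. The test of the difference itself called 180 genes (2.26%), 90 in each direction (1.13% each), and 56 of the 1331 polysomal calls were among them. With the gradient shared by both fractions as a random block it called 121 positive and 120 negative differences. The counts without the block rested on few libraries, since without GV replicate B, in both fractions, they became 24 and 51, and without GV replicate A 33 and 43.

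Cdk1 was higher in GV in polysomes and was not called outside them, with log2 fold changes of 4.62 and 0.48 and a difference of 4.14 (adjusted p = 0.00812). Cdc20 was higher in two-cell in polysomes, with -2.42 against 0.21 in the non-polysome fraction (difference -2.64, adjusted p = 0.00430). Polr2c showed the same, with -2.05 against 0.25 (difference -2.30, adjusted p = 0.0274). In Omt2a, higher in two-cell in both fractions, the change was larger in polysomes, -4.18 against -1.89 (difference -2.28, adjusted p = 0.0234). Supt4a differed the other way, with a smaller change in polysomes, -2.02 against -4.68 (difference 2.66, adjusted p = 0.0460).

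For most named genes the difference between fractions was not called. Zar1 changed by 5.53 in polysomes and 5.84 outside them, and Ooep by 3.63 and 3.88. Mos changed by 5.14 and 9.88, but with a spread that left the difference of -4.74 uncalled (adjusted p = 0.253). Mt1 changed by -8.10 and -10.90 (adjusted p of the difference = 0.165), and Fth1 by -4.33 and -4.95. A difference that missed the threshold here does not show that the fractions changed alike, since the median residual SD of a gene was 1.63 on the log2 scale.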

How the data were processed

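Per the labels and the study's methods, RNA was extracted with Trizol, libraries were made with the Smart-seq v4 and Nextera XT kits, reads were trimmed with Trim Galore 0.4.1 and mapped to GRCm38 with STAR 2.5.3a, and genes were quantified in Partek. The kit primes from poly(A), so values depend on the tail as well as on the number of molecules. The authors deposited normalized FPKM values for 23125 genes in 36 libraries, and 2 of 38 samples, both zygote, were not analysed here. The smallest value is 0.01, an offset within every value. RefSeq genes are named in the methods, but the gene classes in the file look like Ensembl's. Samples were grouped by stage, fraction and replicate letter, and the study describes the replicates as biological.

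FPKM values are not counts, so limma 3.58.1 (R 4.3.3) was run on their log2 without a further offset. The model held 12 group means and all 36 libraries, leaving 24 residual degrees of freedom, with moderated variances and a trend. Testing covered the 7967 genes whose geometric mean reached 0.1 FPKM, and p was Benjamini-Hochberg adjusted over them. Partek's own test was not used. For 1 called gene the values are not reported here. Simulated data on 7967 genes held 100 planted changes of 4, or 100 of 2, on the log2 scale. At the full spread 31 and 7 of them were recovered, with 0 false calls. At 0.25 of that spread 100 and 89 were recovered, with 7 false calls. Residual SDs on the log2 scale were 0.73 for GV and 0.87 for two-cell, against a median of 1.63. Named genes were fixed anchors, the 8 largest changes in each direction and up to 2 per list and direction. The 5 largest differences between fractions among genes averaging at least 10 FPKM were added. The largest changes and list members had to be called without overlap between the groups, and list members had to average at least 5 FPKM. These were 93 genes, most of which are given, and every other gene named was chosen after its values were seen. The members and lists were chosen with earlier results of these data known. Fragment numbers were estimated from FPKM steps and GENCODE M21 exon lengths, and coordinates of genes are GENCODE M21 on GRCm38. Promoter sequences came from RefSeq (GRCm38.p6), where 5241 of the 7967 genes matched by symbol. Alternatives were other offsets, minimum levels, scalings, libraries in the fit, weights, replicate blocks and the omission of each library. Figures were drawn with matplotlib 3.10.9.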

Additional observations from a re-analysis of the deposited data

Results flagged for a closer look

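The interaction test in limma called 180 genes whose change between GV and two-cell differed between the polysome and the non-polysome fraction (adjusted p under 0.05 and over 2-fold), and 10 genes named by rule were among them. The difference of the log2 fold changes, polysome minus non-polysome, was 4.14 for Cdk1, 3.74 for Elob, a subunit of the elongin complex, and 2.66 for Supt4a, and it was -2.64 for Cdc20 and -2.30 for Polr2c. Among the 59 of the 180 that averaged at least 10 FPKM over the 12 GV and two-cell libraries, the largest values belonged to Mfsd10, a transporter-like gene (-9.91), Arxes1, a retrogene (-9.89), and the predicted genes Gm8430 (8.83), Gm32996 (-8.50) and Gm9797 (7.87). None of these last 5 was called in polysomes: Arxes1 changed by 0.14 there and by 10.04 outside them, and Gm8430 by -0.42 and -9.26. Elob read 37.7, 48.3 and 7.23 FPKM in GV and 2.91, 6.15 and 3.87 FPKM in two-cell in polysomes, and the call was lost without GV library A, GV library B or two-cell library A, with an adjusted p of 0.0514 to 0.0775.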

How the results depend on the processing

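Calls higher in GV moved from 981 to 596 with library medians set equal, 636 with protein-coding totals set equal (an alternative chosen after the data were seen), 1707 in the fit of the 18 polysome libraries and 1692 with library weights, whose estimation stopped before convergence, and ranged from 625 to 799 when 1 library was left out. Calls higher in two-cell moved from 350 to 532 with 1 FPKM added, 706 with no minimum level, 210 with protein-coding genes only, 1023 by quantile normalization and 609 in the fit of the 18 polysome libraries, and ranged from 257 to 325 when 1 library was left out. Differences between fractions moved from 90 positive calls to 51 by quantile normalization and 24 in the fit of 12 libraries, with 24 to 116 positive (33 without GV A) and 43 to 167 negative calls when a replicate was left out. With the replicate letter as a block, 925 and 390 genes were called higher in GV and in two-cell in the fit of 6 libraries. In the fit of 36 these were 957 and 344, with 71 and 78 in the difference between fractions. Deviations of same-letter libraries correlated weakly (-0.0070, 0.068 and -0.039). With 3 libraries per group this cannot show whether the letters pair the samples. Among the named genes, 56 of the 74 called were called in all 6 leave-one-out fits. Signs changed for 5 genes that were not called. Hspa1a became -0.21 with 1 FPKM added and ranged from -0.76 to 4.31 when 1 library was left out (-0.26 without GV A, -0.062 without two-cell A). Hspa1b became 1.43 with library weights and ranged from -2.44 to 2.92 when 1 library was left out (0.33 and 1.14 without GV C and B). Arxes1 became -0.35 by quantile normalization, -0.40 with medians and -0.34 with protein-coding totals set equal, and ranged from -0.35 to 0.82 when 1 library was left out (-0.036 without GV A). Gm8430 ranged from -1.11 to 0.095 when 1 library was left out, and Gm32996 became -0.035 with medians set equal. The cause of these moves was not tested. Genes near the floor have log2 fold changes that depend on the offset.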

Other observations

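In the RefSeq promoters, GGATTA, a core of homeobox factors such as OTX and OBOX, was present in 21 of the 163 matched genes called higher in two-cell (12.88%), in 36 of 667 called higher in GV (5.397%) and in 7.16% of all 27025 promoters, searched on both strands. TATAAA was present in 13.5% of the promoters of genes called higher in two-cell, 8.096% of those called higher in GV, 7.308% of all genes tested and 14.16% of all promoters. These shares are descriptions; several of the two-cell genes are copies of each other, and no test was made.

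Prm2, a sperm protamine gene that was measured as a marker, was at 3.72, 4.29 and 1.38 FPKM in GV polysomes and 1.94, 6.30 and 3.41 FPKM in two-cell polysomes, while outside polysomes it averaged 1.41 FPKM in GV and was listed at the floor of 0.01 FPKM in all 3 two-cell libraries (limma, adjusted p = 4.55e-09), so a log2 fold change there is set by the floor. Sp110, a nuclear body gene of the genome activation list, was higher in GV in polysomes (1.67, adjusted p = 0.0202 in limma) and gave -1.03 in the non-polysome fraction; the call was lost without GV library A, GV library C, two-cell library B or two-cell library C, with an adjusted p of 0.0543 to 0.0877.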
